A study of Homo sapiens with 4 samples.

Results

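The 56 genes described here encode ribosome biogenesis factors, and they were chosen by name from a fixed list rather than by any measured value. Rows of the 4 count tables with one of these gene names were taken, and 46 of the 56 were listed in all 4 tables, out of 8568 transcripts in all 4 tables and 9271 in any. The remaining 10 were listed in no table and were not analysed here, namely UTP6, NOP9 and RRP36 among the early small subunit factors, NOP2, NOP16, NOC3L, RRS1, WDR12 and PPAN among the large subunit factors, and DKC1 of the H/ACA snoRNP. The study measured how the aminoglycoside G418, which binds the decoding center of the ribosome, changes translation and stop codon readthrough in HEK293T cells, a line derived from human embryonic kidney and carrying the simian virus large T antigen. Ribosome profiling, which sequences the ribosome-protected fragments (RPFs) of mRNAs, was done on 2 untreated cultures (labelled 0 µg/mL) and on 2 cultures given 500 µg/mL G418, with 24 hours as the labelled duration for all 4. The cells carried no other labelled alteration, and both conditions have biological replicates A and B, so p-values measure the spread between these cultures of a single line.

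Ribosome biogenesis begins in the nucleolus, where RNA polymerase I transcribes the ribosomal RNA precursor and small nucleolar RNPs (snoRNPs) guide its chemical modification and first cleavages. The SSU processome then folds and cuts the part that becomes the small subunit, while a separate series of GTPases, helicases and scaffold proteins matures the large subunit, and late factors escort both to the cytoplasm. Proliferating cell lines express most of these proteins abundantly.

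The members fall into 5 roles. The tables held 15 of 18 early small subunit factors, all 5 late small subunit factors, 13 of 19 large subunit factors, 7 of 8 snoRNP proteins and all 6 of the proteins of the RNA polymerase I machinery and the abundant nucleolar proteins. All 46 matched a GENCODE version 44 transcript of hg38 in the 4 nt of the normal termination codon (NTC) and its following base and in the length of the coding sequence (CDS). In 43 of them the first in-frame stop codon of the 3′UTR (3′TC) also lay where the deposited tables place it, and 3 members (RRP9, NOP53 and BOP1) had no in-frame 3′TC. Of the 46 NTCs, 22 were UGA, 16 were UAA and 8 were UAG.

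The sequences below show the mRNA around the NTC, which is the site at which readthrough is read. Each gives 15 nt before the NTC in lower case, the NTC in capitals and 12 nt after it in lower case, written 5′ to 3′. The first set holds the 6 tested members with the highest readthrough in G418-treated cells, and 4 of the 6 end in UGA, against 22 of the 46 members.
TCOF1: gcagagcagacuguaUGAcgagcaccagca
NOLC1: aaguuugacagcgagUGAccugaggccauc
IMP3: uucgaucuggaagccUAGcggaucucccac
POLR1A: aagcagccucugagaUAGcagcuaccccgg
UTP14A: aaaugcucuguagauUGAguugcuggagga
WDR43: gaaagugaagaagaaUGAagacagcaaagc
Those NTCs lie in hg38 at chr5:150399046-150399048 on the plus strand for TCOF1, chr10:102162267-102162269 on the plus strand for NOLC1, chr15:75639614-75639616 on the minus strand for IMP3, chr2:86027423-86027425 on the minus strand for POLR1A, chrX:129929606-129929608 on the plus strand for UTP14A and chr2:28946777-28946779 on the plus strand for WDR43. The NTC was in the last exon of 44 of the 46 members, and that of TCOF1 was in exon 25 of 26.

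The second set holds members with low readthrough under G418, namely 3 of the 4 lowest of those tested (the other, BOP1, is named only) and NOP14, which was added after its values were seen because it had no read in the window. The NTC is UAA in EBNA1BP2, TSR1 and the added NOP14, UGA in NOC2L and UAG in BOP1. UAA ends 16 of the 46 members and 28.5% of all transcripts with enough mRNA reads.
NOC2L: cucucagaggacgacUGAggcagcccaucu
EBNA1BP2: aagaacagaacacacUAAauagcaucuuug
TSR1: caagggggcauggagUAAuggauucaaaga
NOP14: agaguaauaaugcuaUAAuguuggugugau
They lie at chr1:944694-944696 on the minus strand for NOC2L, chr1:43164443-43164445 on the minus strand for EBNA1BP2, chr17:2324196-2324198 on the minus strand for TSR1 and chr4:2938213-2938215 on the minus strand for NOP14.

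The third set holds the other members with at least 10 untreated reads after the NTC, for which an untreated level could be measured, and NHP2, added after its values were seen for its large change.
NPM1: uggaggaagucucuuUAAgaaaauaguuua
NOP10: ccgcgcccuguccucUGAgggucccuuaaa
FBL: cccaaggugaagaacUGAaguucagcgcug
UTP11: agucgucgaaaacguUGAcguguuauagau
BRIX1: agugggaaaacaaaaUAAgucaauggaaac
NHP2: cugccccuaccccuaUGAggggcuccggua
They lie at chr5:171410563-171410565 on the plus strand for NPM1, chr15:34341968-34341970 on the minus strand for NOP10, chr19:39834538-39834540 on the minus strand for FBL, chr1:38023626-38023628 on the plus strand for UTP11, chr5:34925493-34925495 on the plus strand for BRIX1 and chr5:178149713-178149715 on the minus strand for NHP2.

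The libraries held 2440204 to 6082600 reads on mRNAs, with untreated replicate B the shallowest. All 8 HEK293T markers checked were listed in at least 1 table and 7 of them in all, whereas 0 of 5 blood, 0 of 4 hepatocyte and 0 of 3 keratinocyte markers were listed in any. Of 4 fibroblast markers, COL1A1 and COL3A1 were listed, with a summed CDS density of 3.59 to 6.90 RPKM against 696 to 817 RPKM for the HEK293T markers.

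The biogenesis factors were translated at high and very unequal levels. Density in RPKM (RPFs scaled to CDS length and to mapped reads, as deposited) allows genes of different length to be compared. The mean CDS density over the 4 libraries ran from 15.7 RPKM for UTP20, a very large scaffold protein of the SSU processome, to 2241 RPKM for NPM1, a 143-fold range. The median member had 95.4 RPKM against 17.7 RPKM for the median of all 8568 transcripts, and 45 of the 46 members lay above that median.

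NPM1 (nucleophosmin, a nucleolar chaperone) had 2714 and 2176 RPKM in untreated A and B and 2172 and 1902 RPKM in G418 A and B. NCL (nucleolin, an RNA-binding protein of the nucleolus) followed with 1068 and 861 RPKM untreated and 880 and 776 RPKM with G418. Together these 2 genes took 33.0% to 37.6% of all CDS reads of the 46 members, so sums over the members weigh them heavily. The next 3 were all core snoRNP proteins. NOP10, the smallest protein of the H/ACA snoRNP, had 608 and 500.0 RPKM untreated and 555 and 539 RPKM with G418. FBL (fibrillarin, the methyltransferase of the box C/D snoRNP) had 529 and 527 RPKM untreated and 519 and 479 RPKM with G418. NHP2, another H/ACA protein, had 468 and 499 RPKM untreated and 543 and 440 RPKM with G418. DDX21, a nucleolar RNA helicase, came sixth with 274 and 229 RPKM untreated and 246 and 223 RPKM with G418. On this scale both G418 densities of NPM1 and FBL lay below both untreated ones, whereas those of NCL, NOP10, NHP2 and DDX21 overlapped.

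The roles differed in level. Median density was 175 RPKM for the 7 snoRNP proteins, 152 RPKM for the 6 of the RNA polymerase I and nucleolar group, 120 RPKM for the 13 large subunit factors, 76.6 RPKM for the 5 late small subunit factors and 61.9 RPKM for the 15 early small subunit factors. The ranges overlapped, since POLR1A, the largest subunit of RNA polymerase I, had 27.4 RPKM and UTP11, an SSU processome protein, had 181 RPKM. These are levels of single transcripts in the same 4 libraries and were not tested between roles.

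**Figure D1:**
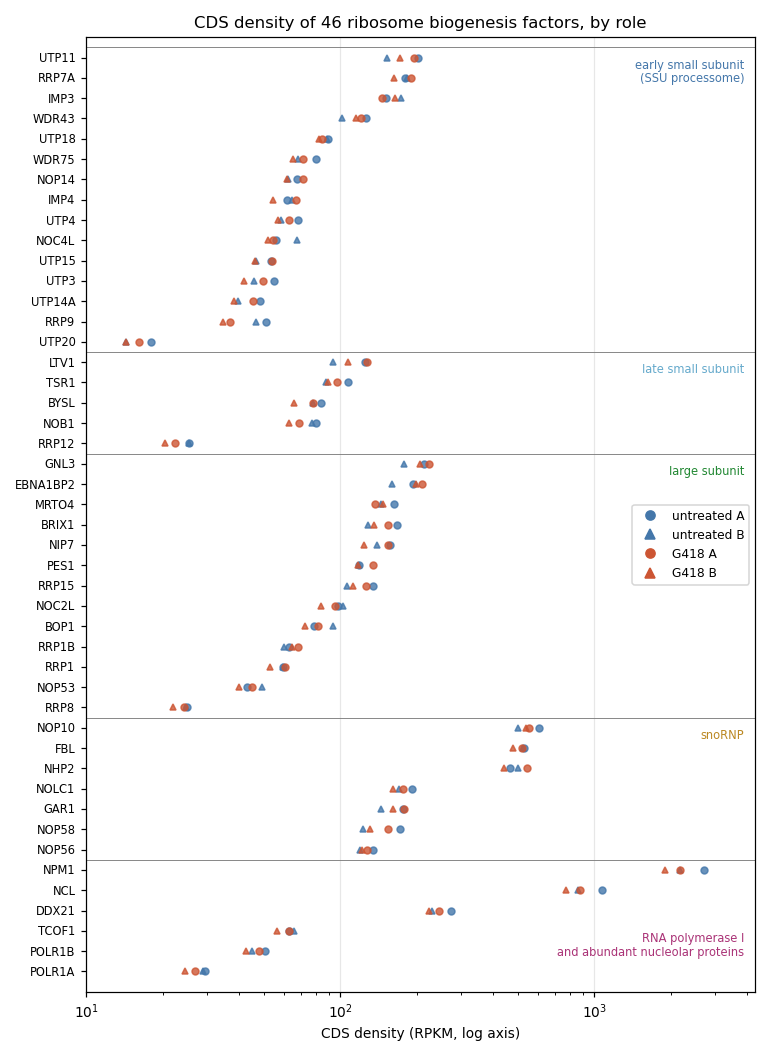
CDS density in RPKM (log axis) of the 46 members in each of the 4 libraries, grouped by role and ordered by mean density within a role; circles are replicate A, triangles replicate B, blue untreated and orange G418. NPM1 and NCL stand above all others at 776 to 2714 RPKM, and for most members the 4 libraries lie close together compared with the differences between genes.

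Whether G418 altered the translation of these genes was asked first with CDS reads. With G418, 5 of the 46 members fell and 0 rose at an adjusted p-value of 0.05 (edgeR's quasi-likelihood test on the deposited counts, Benjamini-Hochberg over 8494 transcripts), where 3.21% of all transcripts fell and 5.31% rose. At an unadjusted p of 0.05, 13 members were lower and 0 higher, against 861 and 1079 of the 8494 transcripts. The changes were small, with a median log2 fold change of -0.16 over the members against 0.00 over all transcripts and a range from -0.53 to 0.13. The fitted change was below 0 for 41 of 46 members, against 49.6% of all transcripts. RPFs in pooled cells give only shares of reads, so that fewer ribosomes on an mRNA, less of that mRNA per cell and fewer cells translating it cannot be told apart.

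The shift moved with expression level. Among the 1551 transcripts of any kind with at least 146 TMM-scaled CPM (counts scaled to the size of the library), the lower quartile of the members, the median log2 fold change was -0.12 and 75.8% lay below 0. Of these transcripts 12.6% fell and 1.61% rose at the same threshold. The 10.9% of all 46 members that fell is near that share, but members under the cut, RRP9 and NOB1 among them, are outside this set. The part of expression level in the members' shift was not tested.

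RRP9, a protein of the snoRNP that directs early pre-rRNA cleavage, fell most. It had 633 and 254 CDS counts in untreated A and B and 429 and 370 in G418 A and B. Scaled for library size with TMM factors, these are 114 and 114 CPM untreated and 78.6 and 79.8 with G418. The groups did not overlap, and the log2 fold change was -0.53 (SE 0.11, adjusted p = 0.00183 from edgeR).

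The 2 most abundant members also fell. NPM1 had 20648 and 7211 counts untreated and 15512 and 12428 with G418, or 3480 ± 335 against 2762 ± 114 CPM (SD, n = 2 each). Its log2 fold change was -0.33 (SE 0.08, adjusted p = 0.00568 from edgeR). NCL had 20034 and 7030 counts untreated and 15487 and 12500 with G418, or 3384 ± 314 against 2768 ± 99.3 CPM (SD, n = 2 each), and a log2 fold change of -0.29 (SE 0.08, adjusted p = 0.0157 from edgeR). In neither gene did the groups overlap, although the untreated replicates differed from each other about as much as the lower of them differed from the G418 replicates. NPM1 has many processed pseudogenes, and the authors kept a single alignment for reads that map to several places, so its counts may miss reads.

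The other 2 that fell act late in small subunit maturation. NOB1, the endonuclease that trims the small subunit rRNA to its final end, had 864 and 362 counts untreated and 692 and 581 with G418, or 159 ± 5.15 against 126 ± 1.01 CPM (SD, n = 2 each). Its log2 fold change was -0.33 (SE 0.10, adjusted p = 0.0351 from edgeR). RRP12, a factor in the nuclear export of ribosomal subunits, had 874 and 383 counts untreated and 721 and 604 with G418, or 165 ± 10.6 against 131 ± 1.26 CPM (SD, n = 2 each), with a log2 fold change of -0.32 (SE 0.10, adjusted p = 0.0445 from edgeR). Neither gene's groups overlapped.

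The calls were lost when a G418 library was left out. Without G418 replicate A or without G418 replicate B none of the 46 members was called, and 3 and 2 members had an unadjusted p under 0.05. Without untreated replicate A, 15 members fell and EBNA1BP2 rose, and without untreated replicate B 20 fell. The 5 members were called again in both fits without an untreated library and were fitted lower in both without a G418 library, and DESeq2 called RRP9, NPM1 and NCL. With library totals for scaling, which moved the median of all transcripts to 0.11 and that of the members to -0.05, RRP9 and NPM1 were called.

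By role, the counts that fell were 1 of 15 early small subunit factors, 2 of 5 late small subunit factors, 0 of 13 large subunit factors, 0 of 7 snoRNP proteins and 2 of 6 of the RNA polymerase I and nucleolar group. At an unadjusted p of 0.05 the large subunit and snoRNP groups had 2 and 1 members lower. All 15 early small subunit factors were fitted below 0, from -0.53 to -0.02. All 6 members of the RNA polymerase I and nucleolar group, in addition to NPM1 and NCL the polymerase subunits POLR1A and POLR1B, DDX21 and TCOF1, had both G418 libraries below both untreated ones in TMM-scaled CPM. Over all members, 27 of 46 had this pattern and 1 the reverse, against 24.8% and 26.5% of all transcripts and 49.1% and 11.2% of the 1551 at or above the members' lower quartile. The 5 members fitted above 0 were the small subunit assembly factor LTV1 and the large subunit factors PES1, RRP1B, GNL3 (nucleostemin, a nucleolar GTPase) and EBNA1BP2, from 0.02 to 0.13, and none of them passed the test.

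**Figure D2:**
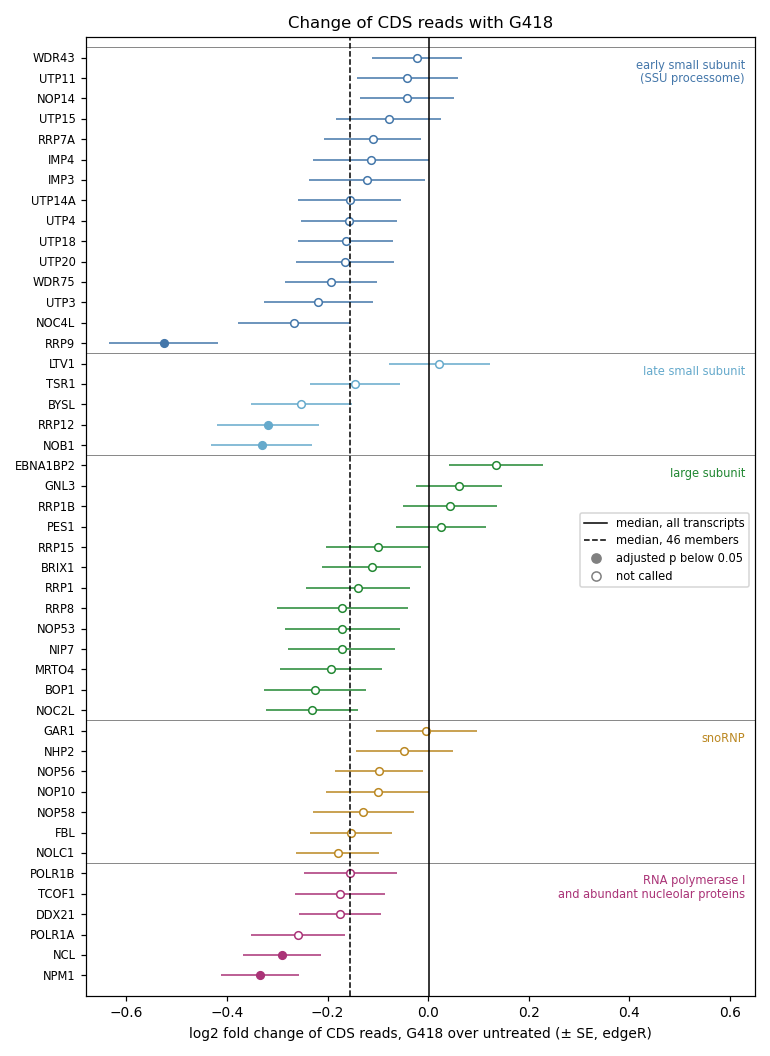
Log2 fold change of CDS reads, G418 over untreated, with its SE from edgeR (x axis) for the 46 members grouped by role; filled points passed an adjusted p of 0.05, the solid line is the median of all transcripts and the dashed line that of the members. The 5 filled points lie between -0.53 and -0.29, and 41 of the 46 points lie below 0.

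As a share of the library, the 46 members took 1.87% and 1.78% of CDS reads in untreated A and B and 1.74% and 1.70% in G418 A and B. Both G418 shares lay below both untreated shares, at 1.83% ± 0.0692 untreated and 1.72% ± 0.0291 with G418 (SD, n = 2 each). NPM1 and NCL made up 83.7% of the difference between these means. Without them the shares were 1.17% and 1.16% untreated and 1.15% and 1.14% with G418.

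Genes of the same pathway that are not members were read from a list set up by role and not by how they moved. Of its 123 genes, 95 were in all 4 tables. In edgeR 10 of the 95 fell and 0 rose, and 26 were lower and 5 higher at an unadjusted p of 0.05. The median log2 fold change was -0.11. The share that fell, 10.5%, stands against 3.21% of all transcripts and 12.6% of the 1551 at or above the members' lower quartile, and is near the latter. The 95 genes were not limited to that level. The largest falls were in EIF6, which keeps the large subunit from joining prematurely, and in MDN1, the giant ATPase that strips factors from large subunit precursors. EIF6 had 1310 and 563 counts untreated and 966 and 769 with G418 (log2 fold change -0.51, SE 0.10, adjusted p = 0.000848 from edgeR). MDN1 had 1459 and 565 counts untreated and 1031 and 949 with G418 (log2 fold change -0.40, SE 0.09, adjusted p = 0.0065 from edgeR). Of 64 cytosolic ribosomal proteins, the products that these factors assemble, 20 fell and 0 rose (37 lower and 4 higher at an unadjusted p of 0.05), with a median of -0.19. The 20 are 31.25% of these proteins, which were not compared with transcripts of their own level.

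Readthrough was read from RPFs in the window that runs from the NTC to the first in-frame 3′TC. The ribosome readthrough score (RRTS) divides the density of these RPFs by the CDS density of the same transcript, so that an RRTS of 1 would mean as many ribosomes per nucleotide after the stop codon as before it. Summed over all 46 members, which needs no minimum of reads per gene, the reads in this window were 2.45% and 2.69% of those expected at the CDS density in untreated A and B. With G418 they were 21.7% and 22.6%. The means were 2.57% ± 0.175 and 22.1% ± 0.640 (SD, n = 2 each), an 8.61-fold rise, and both G418 values lay above both untreated values. Over the 6509 transcripts that reached the study's minimum of mRNA reads in each condition, the same measure rose 8.13-fold, from 1.90% ± 0.133 to 15.4% ± 0.525 (SD, n = 2 each). NPM1 gave 346 of the G418 reads, and without it the means were 2.36% and 24.7%.

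The window of 42 of the 46 members overlapped no annotated CDS. In NCL, UTP18 and NOP53 all or nearly all of it, and in NOP10 6 of 168 nt, is CDS in another GENCODE version 44 transcript of the same gene. RPFs of such a transcript and readthrough cannot be told apart there. Without these 4 genes, a choice made after seeing the data, the means were 2.79% untreated and 20.96% with G418.

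Reads dropped after the first in-frame 3′TC. Over the 43 members that have one, the density before it was 21.7% and 22.8% of CDS density in G418 A and B. The density after it, taken over all the rest of the 3′UTR, was 0.968% and 0.894%. That stretch holds further in-frame 3′TCs in most members, so these values do not give termination at the first 3′TC alone. In untreated replicates A and B the densities were 2.42% and 2.72% before and 0.166% and 0.151% after. The density after the 3′TC was thus 4.19% ± 0.373 of that before it with G418 and 6.21% ± 0.942 untreated (SD, n = 2 each), the latter from 109 and 37 reads.

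Single members differed in whether an untreated level could be measured at all. Of the 46, 11 had no untreated read in the window in either replicate, and untreated replicate B alone had none in 24. With G418, 3 and 1 members had none in replicates A and B. Both G418 scores lay above both untreated scores in 40 of 46 members, against 65.3% of the 6509 transcripts. Of these transcripts 50.3% had no untreated read in the window, against 23.9% of the members. The exceptions were RRP8, UTP20, IMP4, WDR75, BRIX1 and NOP14.

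The test of single members could be made for the 37 with at least 10 such reads, and 33 of these were higher with G418 and 0 lower (edgeR with CDS reads as offset, adjusted p of 0.05 over 2827 transcripts), where 82.6% of all transcripts tested were higher. None of the 37 was fitted below 0. Members pass this minimum mostly through their G418 reads, so this count describes them and adds nothing to the sum over all 46. The RRTS p-values of single members given below share this limit, and those of members picked by their G418 score are descriptions as well. The 4 not called were BRIX1, WDR75, POLR1A and TSR1, and the 9 with too few reads were NOC4L, POLR1B, UTP3, RRP8, UTP20, UTP18, NOP53, IMP4 and NOP14. DESeq2 called 21 of the 37 higher, and leaving out a library left 21 (without G418 replicate A) to 31 (without untreated replicate B).

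TCOF1 (treacle, which couples rDNA transcription to early processing) had the highest score of the 46. Its RRTS was 0.0663 and 0 in untreated A and B and 1.13 and 1.54 in G418 A and B, so that RPF density after its UGAC stop was above that of its CDS in both treated libraries. These scores rest on 1 and 0 reads untreated and on 16 and 18 with G418 in a window of 27 nt, and the pooled G418 score was 1.31 with a 95% exact Poisson interval of 0.909 to 1.83, which covers counting error only. Against the single untreated read the ratio was 28.8, with an exact counting interval of 4.84 to 1172 (log2 fold change 4.57, SE 0.90, adjusted p = 1.8e-06 from edgeR). Of the 664 transcripts that end in UGAC, 22 had a higher pooled G418 score.

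NOLC1, the nucleolar phosphoprotein that chaperones snoRNPs and also ends in UGAC, was measured far better. It had 3 and 4 reads in the window untreated and 95 and 81 with G418, for RRTS values of 0.0153 and 0.0528 untreated and of 0.564 and 0.576 with G418. The G418 replicates were close to each other and lay above both untreated ones (log2 fold change 4.41, SE 0.37, adjusted p = 3.2e-31 from edgeR).

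IMP3, a protein of the SSU processome, had no read in the window in either untreated replicate and 25 and 31 with G418, with RRTS values of 0.424 and 0.514. Taking 3 reads over both untreated libraries as the smallest detectable count, its readthrough was at least 15.2-fold higher with G418. This bound leaves out the counting error of the G418 reads. WDR43, another SSU processome protein, had 1 and 2 reads untreated and 54 and 46 with G418, and RRTS rose from 0.00644 and 0.0365 to 0.385 and 0.377 (log2 fold change 4.63, SE 0.52, adjusted p = 8.8e-18 from edgeR). UTP14A, of the same complex, had no untreated read and 8 and 9 with G418, with an RRTS of 0.368 and 0.539. Taken the same way as for IMP3, the rise was at least 4.93-fold, again without that counting error. UTP14A has a retroposed copy, UTP14C, and reads shared with it may be placed on either gene. POLR1A was not called, with 2 and 1 reads untreated and 2 and 5 with G418. Its RRTS was 0.195 and 0.228 untreated and 0.229 and 0.684 with G418, and the ratio of 2.13 had a counting interval of 0.486 to 12.7.

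NOP10 carried the most G418 reads of all members, 219 and 175 over 168 nt against 15 and 4 untreated. Its RRTS rose from 0.0164 and 0.0122 to 0.280 and 0.252 (log2 fold change 4.11, SE 0.24, adjusted p = 2.2e-60 from edgeR). The related H/ACA protein NHP2, also ending in UGAG, had 2 and 0 reads untreated and 114 and 124 with G418, for RRTS values of 0.00326 and 0 untreated and 0.170 and 0.250 with G418. That is a ratio of 91.8 with a counting interval of 25.1 to 763. The G418 scores of both genes lay between 0.170 and 0.280, and the pooled untreated score of NHP2 was the lowest above 0 of any member.

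The remaining members with at least 10 untreated reads began from higher levels. NPM1 had 47 and 26 reads untreated and 174 and 172 with G418, and RRTS rose from 0.0249 and 0.0394 to 0.123 and 0.151 (log2 fold change 2.22, SE 0.19, adjusted p = 7.4e-31 from edgeR). FBL had 22 and 10 reads untreated and 62 and 34 with G418, and its RRTS of 0.0776 and 0.0814 rose to 0.238 and 0.154 (log2 fold change 1.33, SE 0.30, adjusted p = 4.2e-05 from edgeR). UTP11 had 8 and 2 reads untreated and 72 and 37 with G418, and RRTS rose from 0.0368 and 0.0279 to 0.365 and 0.235 (log2 fold change 3.12, SE 0.39, adjusted p = 2.1e-14 from edgeR). In each of these 3 both G418 scores lay above both untreated scores, and the rise was larger than the difference between replicates.

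BRIX1, a large subunit assembly factor whose stop is UAAG, was the exception among them. It had 13 and 4 reads untreated and 9 and 11 with G418, and its RRTS was 0.120 and 0.111 untreated and 0.0969 and 0.146 with G418. The groups overlapped, and the log2 fold change was 0.01 (SE 0.55, adjusted p = 0.979 from edgeR). The ratio of 1.01 had a counting interval of 0.501 to 2.05, which does not reach the 8.61-fold of the members together. Its untreated score lay above the 2.45% and 2.69% of CDS density of the members together, whereas its G418 score lay below their 21.7% and 22.6%. Of the 458 transcripts that end in UAAG, 204 had a higher pooled G418 score and 253 a lower one. Whether its change differed from that of other members was not tested.

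At the low end, TSR1, which acts late in small subunit maturation, had RRTS values of 0.0272 and 0.0191 untreated and 0.0482 and 0.0665 with G418 from 4, 1, 6 and 7 reads. It was not called, and the ratio of 2.26 had a counting interval of 0.756 to 8.10. EBNA1BP2 had 7 and 4 reads untreated and 23 and 13 with G418, and RRTS rose from 0.0329 and 0.0525 to 0.106 and 0.0692 (log2 fold change 1.20, SE 0.52, adjusted p = 0.0272 from edgeR). NOC2L, a large subunit export factor, had 3 and 2 reads untreated and 9 and 9 with G418, with scores of 0.0326 and 0.0478 and of 0.107 and 0.133 (log2 fold change 1.62, SE 0.76, adjusted p = 0.0409 from edgeR). BOP1, a scaffold of the large subunit complex that also holds PES1, had 1 and 0 reads untreated and 12 and 4 with G418, with scores of 0.0133 and 0 and of 0.163 and 0.0669 (log2 fold change 3.50, SE 1.09, adjusted p = 0.00232 from edgeR). The calls of EBNA1BP2, NOC2L and BOP1 were lost with DESeq2 and without G418 replicate A. Those of EBNA1BP2 and NOC2L were also lost without untreated replicate A, and that of NOC2L without G418 replicate B.

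NOP14, an SSU processome protein that ends in UAAU, had no read in its 81 nt window in any of the 4 libraries. Its CDS density would place 86.7 reads there over both G418 libraries. The 0 reads allow an RRTS of up to 0.0346 with G418 (3 reads), so readthrough was not detectable at this depth. Of the 1672 transcripts with at least as many expected reads, 69 had none under G418, NOP14 included, and 8 of these end in UAAU.

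**Figure D3:**
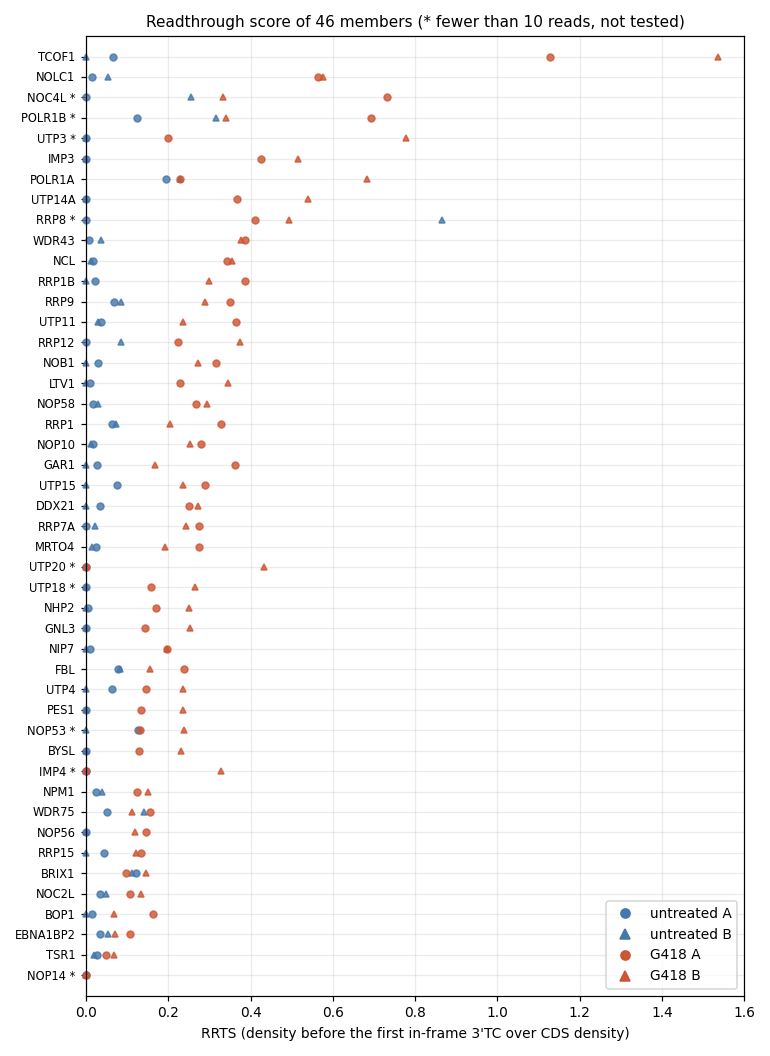
RRTS (x axis, linear) of the 46 members in each library, ordered by the mean of the 2 G418 libraries; circles are replicate A, triangles replicate B, blue untreated and orange G418, and an asterisk marks a member with under 10 reads in all, which was not tested. TCOF1 at 1.13 and 1.54 stands apart at the top, NOP14 is at 0 in all 4 libraries, and for BRIX1 the 4 points lie together near 0.1.

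**Figure D4:**
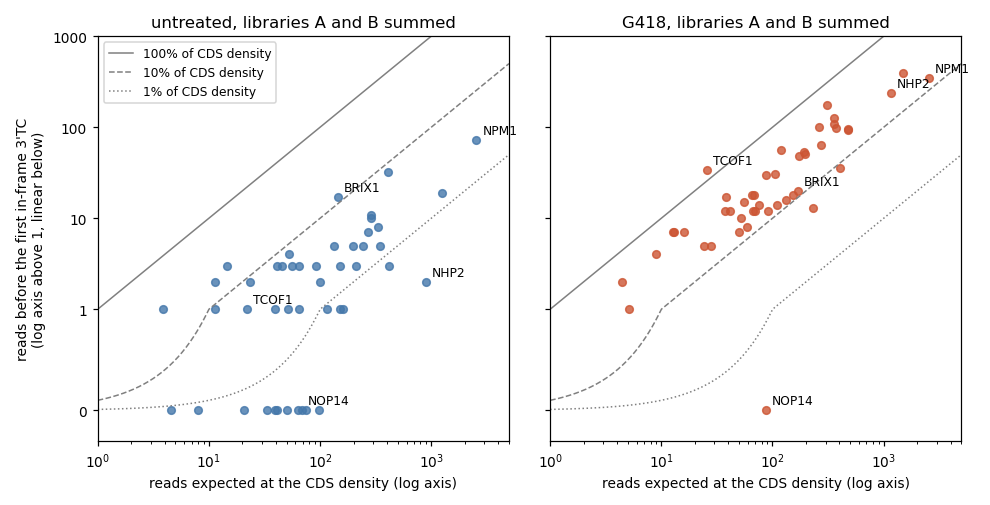
Reads in the window from the NTC to the first in-frame 3′TC (y axis, log above 1 and linear below) against the reads expected there at the CDS density (x axis, log) for each of the 46 members, with replicates A and B summed, untreated on the left and G418 on the right; lines mark 100%, 10% and 1% of CDS density. Untreated points scatter about and below the 10% line with 11 members at 0, and most G418 points lie between the 10% and 100% lines.

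Members were grouped here by the stop codon and the base after it, and the other printed positions were not compared. Among the members, the median pooled G418 RRTS was 0.294 for the 22 ending in UGA (range 0.119 to 1.31), 0.272 for the 8 ending in UAG (0.120 to 0.470) and 0.189 for the 16 ending in UAA (0 to 0.535). Over all 6509 transcripts the medians were 0.260, 0.192 and 0.138. The 6 members ending in UGAC (TCOF1, NOLC1, NOC4L, RRP8, RRP9 and UTP11) had the highest median of the 4 nt stop codons with at least 2 members, 0.497, against 0.390 for all 664 such transcripts. That median lies between RRP8 (0.448 from 2 G418 reads) and NOC4L (0.546 from 7), neither of them tested. TCOF1 and NOLC1 also lay above 0.390, whereas RRP9 (0.322) and UTP11 (0.307) lay below it. The 4 ending in UAAG (GAR1, NPM1, WDR75 and BRIX1) had a median of 0.135 against 0.101 for all 458. In each of the 3 stop codons the median of the members lay above that of all transcripts, which are less well sampled, since 12.1% of all transcripts and 2.17% of the members had no G418 read in the window. With 1 to 10 members per 4 nt stop codon these are descriptions, not tests.

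The stop codon did not order the members fully. Among those ending in UGAG, the pooled G418 score ran from 0.119 in NOC2L (18 reads) to 0.442 in UTP14A (17 reads). Their exact Poisson intervals, 0.0703 to 0.187 and 0.258 to 0.708, did not overlap. Among those ending in UAAC the score ran from 0.193 in GNL3 (10 reads) to 0.535 in POLR1B (7 reads, not tested). The intervals of GNL3 and POLR1B, 0.0924 to 0.354 and 0.215 to 1.10, overlapped, so no order is read from the UAAC scores. The 12 members with under 40 nt counted ranged from 0.179 to 1.31 and the 34 others from 0 to 0.569, a wider span for the short windows, which hold few reads.

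Finally, reads in the 5′UTR were set against CDS reads. They were few, with a median of 1.34 per 100 CDS reads over the 46 members in untreated cells against 2.97 over 8535 transcripts that have a 5′UTR counted. NHP2 had the most of the members, with 19.2 and 15.2 per 100 CDS reads untreated and 14.0 and 17.7 with G418, and UTP15, an SSU processome protein, followed with 13.2 and 13.4 untreated and 11.4 and 13.9 with G418. In both genes the groups overlapped. Of the 30 members that could be tested, NPM1 fell and 0 rose (edgeR, adjusted p of 0.05 over 3656 transcripts), where 1.70% of all transcripts fell. At an unadjusted p of 0.05, 4 of the 30 members were lower and 1, DDX21, higher, against 422 and 84 of the 3656 transcripts.

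NPM1 had 247 and 104 5′UTR reads untreated and 99 and 98 with G418. Per 100 CDS reads these are 1.20 and 1.44 untreated and 0.638 and 0.788 with G418, or 1.32 ± 0.174 against 0.713 ± 0.106 (SD, n = 2 each). The groups did not overlap, and the log2 fold change was -0.88 (SE 0.20, adjusted p = 0.0433 from edgeR). The call was lost without G418 replicate A or G418 replicate B and with a minimum of 50 reads.

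**Figure D5:**
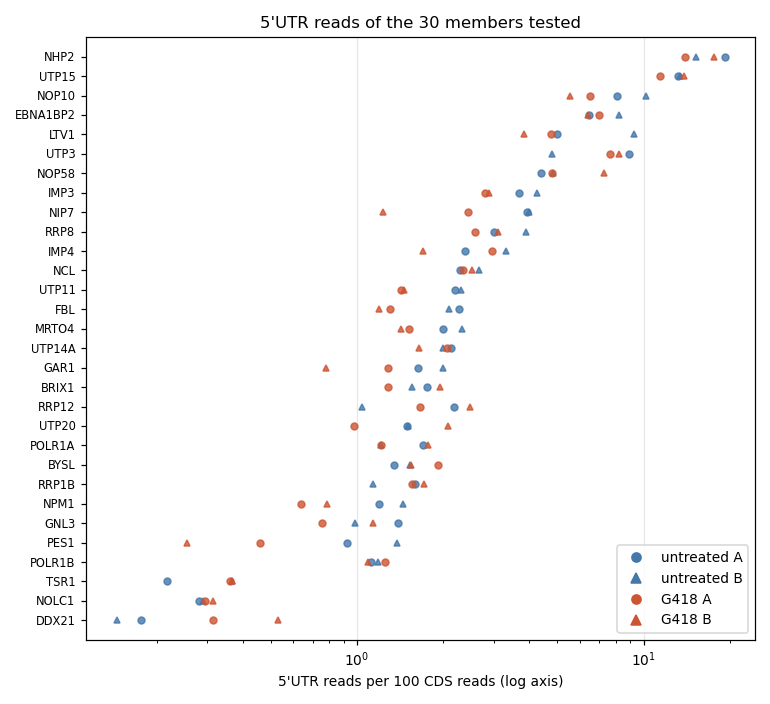
5′UTR reads per 100 CDS reads (log axis) of the 30 members tested, in each library, ordered by the untreated mean; circles are replicate A, triangles replicate B, blue untreated and orange G418. The values span 0.145 for DDX21 to 19.2 for NHP2, and for most members the libraries of the 2 conditions overlap.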

How the data were processed

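Reads were made with CASAVA 1.8 and aligned with STAR to hg38, per the submitters' processing notes. The authors collapsed duplicates by molecular identifier, removed noncoding RNA, kept a single alignment for reads that map to several places and counted full-length RPFs on 1 transcript for each gene. The deposited counts are not normalized. The authors' RPM values scale these reads to the library, their RPKM values divide RPM by the shortened region, and the deposited RRTS is a ratio of 2 such densities. The deposited 5′UTR density was classed as a score and not used. Transcripts under 1.00 RPKM are not listed. The authors also discarded transcripts with an incomplete CDS or UTR, those overlapping a neighbouring gene and those with UTRs overlapping pseudogenes. Absence of a member therefore need not mean a low level, and which filter removed it was not tested.

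Every RPM value was a whole multiple (100% within 0.01) of 1 read, and reads so recovered were used for RRTS and 5′UTR values, the deposited counts for the CDS test. Tests were two-sided edgeR 4.0.16 quasi-likelihood fits (R 4.3.3) over all transcripts in all 4 tables, with TMM and filterByExpr for CDS counts. RRTS needed 10 reads in all and the study's minimum of 128 mRNA reads, here per condition. The 5′UTR test needed 20 reads in all and 128 CDS reads per condition. Both used CDS reads plus 0.5 as offset. DESeq2 1.42.0 and other settings were alternatives. Scripts (Python 3.11.15, scipy 1.17.1) were tested on simulated data. Ratios of reads carry exact conditional binomial intervals (95%).

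Members and lists were chosen with earlier results of these data known. Values are given for up to 8 members called in each direction in CDS reads, the 6 densest, the 6 highest and 4 lowest in mean G418 RRTS among those tested, those with at least 10 untreated reads after the NTC, members called in 5′UTR reads, and the 2 largest called changes of the other genes. NOP14, NHP2, UTP15, RRTS values named by stop codon and the unadjusted calls named were added after their values were seen.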

Additional observations from a re-analysis of the deposited data

How the results depend on the processing

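The number of members lower in CDS reads, 5, was 2 with library totals for scaling, 3 with DESeq2 and 0 to 20 when a library was left out, and the number higher, 0, became 0 to 1. A condition left with 1 library was assumed to vary like the other. Under library totals 41 of 46 members lay below the median of all transcripts. Over all transcripts, 273 lower and 451 higher became 120 and 887 with library totals, 140 and 113 with DESeq2 452 and 618 with the replicate block, and 15 to 1092 and 57 to 990 without a library. The number of members higher in RRTS, 33, was 21 with a minimum of 20 reads, 21 with DESeq2 and 21 to 31 when a library was left out, while 2336 higher over all transcripts became 1536, 1408 and at least 1496, and 2 lower became 1 with DESeq2 and 5 over the whole 3′UTR. The 1 member lower in 5′UTR reads became 0 with a minimum of 50 reads and 0 to 3 without a library, and over all transcripts 62 lower became 11 to 357 and 1 higher 0 to 51. The cause of these changes was not tested. The replicate letters gave a correlation of 0.136 between A minus B differences of the conditions over 8494 transcripts, which does not pair the samples. With them as a replicate block, 7 members were lower in CDS reads, 25 higher in RRTS (NOC2L not among them) and 1 lower in 5′UTR reads. As the mean of the members' own scores, aggregate RRTS was 4.42% untreated and 28.5% with G418. Leaving out NPM1 gave 2.36% and 24.7%, and leaving out the 4 members with annotated CDS in the window 2.79% and 20.96%, choices made after seeing the data. All 46 members passed the minimum of mRNA reads in every library, so that minimum changed nothing. The summed CDS level in RPM with G418 was 0.922 of untreated, 0.998 as a median over members and 0.861 to 0.992 when a library was left out. Of 460 single-member CDS results under alternatives, 0 called results changed sign, as was so for 318 in RRTS and 202 in 5′UTR reads.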
